A study of Mus musculus with 6 samples.

Results

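Runs of neighbouring genomic windows in which lung endothelial cells of 18-month-old mice were more methylated than those of 8-month-old mice were examined one by one. A run is a stretch of 3 or more consecutive windows of 1000 bp, and its members were chosen by the measured methylation levels themselves. In each window of a run all 3 values of the group titled aged lay above all 3 values of the group titled mAdu, the group means were at least 8 percentage points apart, and no value was under 0.01% or above 99.99%. Of 1654777 eligible windows on the 19 autosomes, 14430 (0.872%) met the window rule in this direction, and 56 of them formed 18 runs. With the ages exchanged 17293 windows (1.05%) met it and also formed 18 runs, called mAdu-high runs below. Since the levels chose the runs, the levels and differences given for them are a description and carry no test.

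The study profiled endothelial cells sorted by flow cytometry from lungs of wild-type mice at both ages, with 3 samples each, by tagmentation-based whole-genome bisulfite sequencing. The series' design names the ages without tying them to sample titles, so aged was taken as 18 months and mAdu as 8 months. No animals are named, so spreads and p-values describe these samples alone and may be technical. The read depth is unknown, so no counting error is given. The mean level over eligible windows lay between 73.3% and 73.9% in aged and between 73.5% and 73.8% in mAdu samples. Bodies of 20 endothelial identity genes averaged 40.8% to 42% in aged and 41.2% to 41.7% in mAdu samples. Those of 14 epithelial markers averaged 61.7% to 62.6% and 61.8% to 62.3%, those of 14 haematopoietic markers 69.1% to 69.7% and 68.6% to 69.7%, and those of 14 mesenchymal markers 66.1% to 67.4% and 66.3% to 66.8%. The ranges of the groups overlapped in each list. A different share of cells that carry methylation and a different level in every cell cannot be told apart in such bulk samples.

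In mammals DNA methylation sits mainly on cytosines followed by guanine (CpG sites). Maintenance methylation copies it at cell division, and de novo methyltransferases such as DNMT3A add it. Most of the genome is highly methylated, while CpG-rich promoters and active enhancers are kept low. Partly methylated stretches far from genes can differ from cell to cell and from sample to sample.

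None of the 17 runs on chromosomes of the RefSeq promoter table (GRCm38.p6, the same coordinates as mm10) held a transcription start site listed there. The table gave promoters for 4 of the 6 genes that overlapped a run or lay within 10 kb of one, Gm10668, Gm4565, Khdrbs2 and Xirp2. They are shown as the 300 bases around the start, 5′ to 3′ on the strand of the gene, with CpG sites in capitals, because a pair of them are near copies and because they differ widely in CpG sites. The starts lie 2999 to 10624 bp from the runs, and the CpG content of the runs themselves was not analysed here.
Gm10668, chr7:20730575-20730874, minus strand: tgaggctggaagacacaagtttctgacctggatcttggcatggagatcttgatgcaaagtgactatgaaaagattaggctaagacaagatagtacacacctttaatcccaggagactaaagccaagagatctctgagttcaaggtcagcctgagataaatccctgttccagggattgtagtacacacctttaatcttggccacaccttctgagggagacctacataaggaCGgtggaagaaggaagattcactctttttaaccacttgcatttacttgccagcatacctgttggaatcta
Gm4565, chr7:22588078-22588377, minus strand: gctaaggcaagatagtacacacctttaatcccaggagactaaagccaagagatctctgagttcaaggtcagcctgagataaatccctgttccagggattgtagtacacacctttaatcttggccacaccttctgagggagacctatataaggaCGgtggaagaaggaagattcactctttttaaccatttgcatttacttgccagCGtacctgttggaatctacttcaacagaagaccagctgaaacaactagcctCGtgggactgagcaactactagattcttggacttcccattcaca
Khdrbs2, chr1:32172472-32172771, plus strand: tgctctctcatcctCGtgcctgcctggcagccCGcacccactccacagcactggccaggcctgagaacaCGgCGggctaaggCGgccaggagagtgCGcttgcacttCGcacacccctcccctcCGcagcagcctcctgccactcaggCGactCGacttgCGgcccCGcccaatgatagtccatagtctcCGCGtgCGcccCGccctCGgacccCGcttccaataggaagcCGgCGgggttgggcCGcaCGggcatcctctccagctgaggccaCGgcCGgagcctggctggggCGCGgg
Xirp2, chr2:67445752-67446051, plus strand: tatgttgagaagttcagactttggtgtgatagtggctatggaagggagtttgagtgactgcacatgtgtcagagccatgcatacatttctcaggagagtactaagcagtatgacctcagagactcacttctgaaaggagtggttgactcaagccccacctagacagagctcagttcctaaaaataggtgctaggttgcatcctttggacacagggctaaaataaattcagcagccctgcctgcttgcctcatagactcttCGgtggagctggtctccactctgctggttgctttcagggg
The promoter of Gm10668 held 1 CpG, that of Gm4565 held 3, that of Xirp2 held 1 and that of Khdrbs2 held 26. Over all 32851 promoters of the table the median was 7, and 31.4% held at most 3. Laid over each other with a shift of 77 bases, the promoters of Gm10668 and Gm4565 were identical at 219 of 223 positions, with a longest shared stretch of 138 bases. Stretches of 50 bases of both were also found in the promoters of Gm4513 and Gm4567, on the same chromosome, and no other promoter of the table shared 50 bases with those of Khdrbs2 or Xirp2. Reads from such copies can be hard to place. The part of this in the levels was not tested.

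Levels in the runs were close to full methylation in most aged samples and intermediate in most mAdu samples. The mean over the runs was 86.3%, 86.5% and 90.4% in aged samples 1, 2 and 3, and 55.6%, 48.7% and 49.1% in mAdu samples 1, 2 and 3. Aged sample 3 was the highest of its group in 12 of the 18 runs, while the highest mAdu sample varied, with 7, 4 and 7 runs for samples 1, 2 and 3. The difference of the group means ran from 12.1 to 49 points, with a median of 39.1. All 3 aged samples lay above 80% in 13 runs. The same rule applied to groups that mix the ages gave 297 runs. The aged mean was above 80% in 77.8% of the 18 runs and in 0% of mAdu-high runs. It was so in 18.9% of runs of mixed groupings and 36.8% of all stretches of 3 consecutive eligible windows. The spread was wider in mAdu, with a median SD of 13.4 points against 2.23 in aged, and the mAdu SD was the larger in 14 runs. The mAdu SD was the larger in 3 of the 18 mAdu-high runs, 154 of the 297 runs of mixed groupings and 540245 of 1072874 stretches. In the mAdu-high runs the spread was the wider in aged samples, with a median SD of 10.4 points against 5.97 in mAdu, so in both directions the lower group had the larger median SD.

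**Figure D1:**
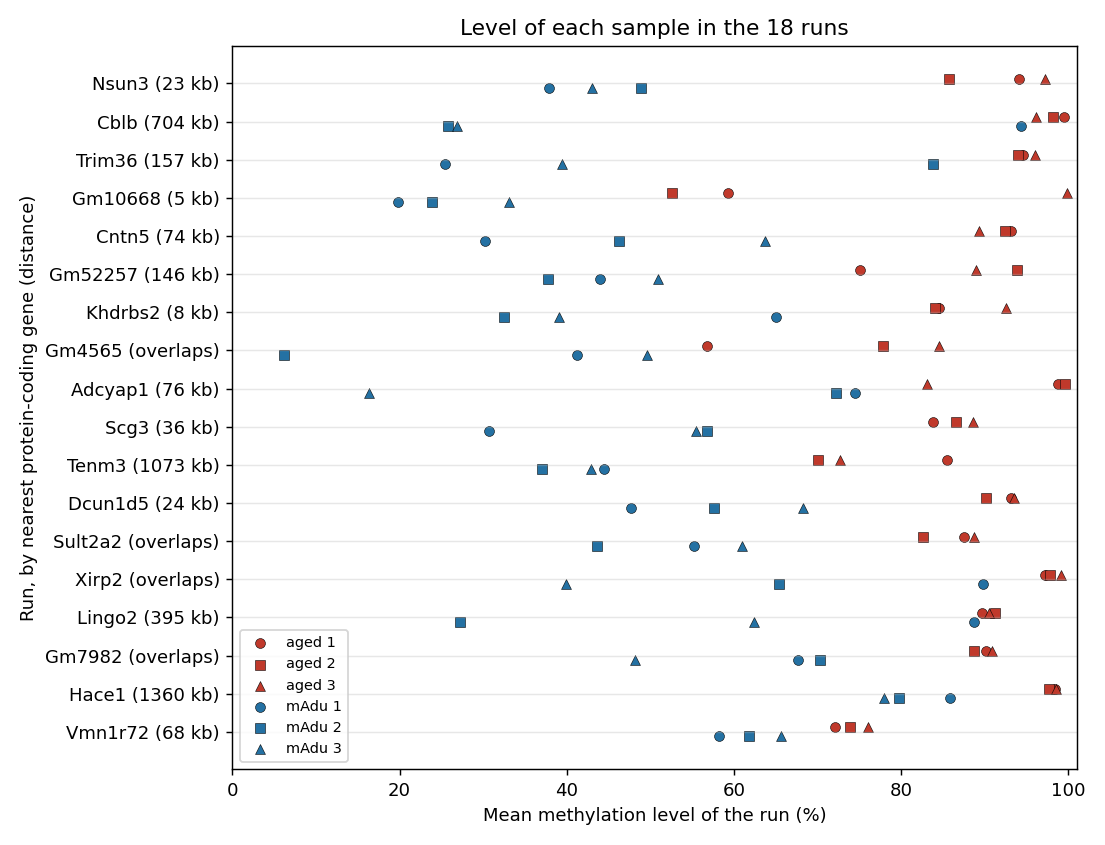
Mean methylation level (%) of each sample in each of the 18 runs, ordered by the difference of the group means; each point is 1 sample, and the distance to the nearest protein-coding gene stands beside its name. The red aged points crowd toward the upper end while the blue mAdu points spread, as in the Cblb row, where 1 mAdu sample at 94.3% lies beside the aged samples and the others are under 27%.

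Separation of the groups was clearest in the run near Nsun3, which encodes a methyltransferase of mitochondrial tRNA. This run (chromosome 16, 62706001 to 62709000) lay 23444 bp from the gene, at 94.1%, 85.7% and 97.2% in aged samples 1, 2 and 3 and at 37.9%, 48.9% and 43.1% in mAdu samples 1, 2 and 3. Its groups lay 36.8 points apart at their nearest samples, more than the range within either group, and the means were 92.3% ± 5.96 and 43.3% ± 5.53 (SD, n = 3). Along its windows the difference fell from 67.8 to 59.8 and 19.5 points. In 6 further runs the gap between the groups also exceeded the wider of the ranges within them. They were the run in Sult2a2 and those with Gm52257, Scg3, Tenm3, Dcun1d5 and Hace1 as nearest protein-coding gene, at the distances given below. In the other 11 runs the gap did not exceed it. These counts come from the levels that chose the runs. They are not set beside counts for mAdu-high runs or mixed groupings.

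In several runs the mAdu samples lay far apart. The run nearest Cblb, a ubiquitin ligase that restrains T cell activation (chromosome 16, 51324001 to 51327000, 704230 bp from the gene), stood at 99.5%, 98.2% and 96.1% in aged samples, and mAdu sample 1 was at 94.3% where samples 2 and 3 were at 25.8% and 26.8%. Only 1.83 points parted the nearest samples there, against a mean difference of 49 points. Near Lingo2, a leucine-rich repeat membrane protein of neurons (chromosome 4, 37347001 to 37350000, 395257 bp away), aged samples lay at 89.7%, 91.2% and 90.5% and mAdu samples at 88.7%, 27.2% and 62.5%. Here the gap was 0.954 points, and without mAdu sample 2 the difference was 14.9 instead of 31 points. In the run nearest Trim36, a RING-type ubiquitin ligase (chromosome 18, 46005001 to 46008000, 157300 bp away, overlapping the long noncoding RNA gene A330093E20Rik), aged samples were at 94.5%, 93.9% and 96.1% and mAdu samples at 25.4%, 83.8% and 39.5%. In all, 5 runs had a mAdu sample above 80%, and in 4 of them another mAdu sample was under 50%.

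Protein-coding genes overlapped 4 runs, those of Gm4565, Sult2a2, Xirp2 and Gm7982, and the first window of the Gm4565 run lay outside that gene. Among 1072874 stretches of 3 consecutive eligible windows 54.7% overlapped a protein-coding gene, against 22.2% of the runs, 27.8% of mAdu-high runs and 27.3% of the 297 runs of groupings that mix the ages. Xirp2, an actin-binding protein of striated muscle, held a run 2999 bp downstream of its start (chromosome 2, 67449001 to 67452000), with 97.2%, 97.8% and 99.1% in aged and 89.7%, 65.4% and 39.9% in mAdu samples. The window at its start did not share that pattern, at 75.6% ± 6.85 in aged and 75.7% ± 3.04 in mAdu (SD, n = 3). Without mAdu sample 3 the difference of the Xirp2 run was 20.5 instead of 33 points. Sult2a2, a sulfotransferase (chromosome 7, run from 13771001 to 13774000), was at 87.6%, 82.6% and 88.7% in aged and 55.2%, 43.6% and 60.9% in mAdu samples. The run in the predicted gene Gm7982 (chromosome 5, 95742001 to 95745000) was at 90.1%, 88.7% and 90.9% and at 67.7%, 70.3% and 48.1%. Its 3 windows differed by nearly the same amount, between 27.2 and 28.5 points. Any smoothing of the deposited levels is not given in the sources used, so neighbouring windows of a run may not be separate measurements. Whether the runs lie in exons or introns is not known, because the gene table gives spans alone.

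Runs by both of the near-copy genes, the longest run among them, lay within 100 kb of vomeronasal receptor genes, which encode pheromone receptors, on chromosome 7. The run of 5 windows near Gm10668, a predicted gene 4512 bp away (20715001 to 20720000), had 59.3%, 52.5% and 99.8% in aged and 19.9%, 23.9% and 33.1% in mAdu samples. Its means were 70.6% ± 25.6 and 25.6% ± 6.76 (SD, n = 3), so aged sample 3 stood far above the other 2 aged samples. Levels climbed along the 5 windows in every sample except aged 3, from 42.2% to 75.3% in aged 1, from 22.5% to 74.3% in aged 2 and from 1.55% to 55.6% in mAdu 1, while aged 3 was at 99.8% in each. The longest mAdu-high run, also of 5 windows, began on the same chromosome at 20679001 near Vmn1r107, and 31000 bp lay between them. There aged samples had 25.2%, 19% and 1.11% and mAdu samples 48.7%, 41.6% and 53.9%, so aged sample 3 was at the upper extreme in one run and at the lower extreme in the other. Gm4565 (run from 22581001 to 22584000) was at 56.8%, 77.9% and 84.6% in aged and 41.2%, 6.19% and 49.6% in mAdu samples. At its start, outside the run, the window from 22588001 to 22589000 had 67.8% ± 2.67 in aged and 43.9% ± 16.5 in mAdu (SD, n = 3). The groups did not overlap there, with aged sample 3 at 65.1% and mAdu sample 2 at 62.5%. Of all eligible windows 4.76% had aged above mAdu in every sample. The remaining run within 100 kb of a vomeronasal receptor gene was nearest Vmn1r72 (11599001 to 11602000, 67599 bp away), with the smallest difference of the 18: 72.1%, 73.9% and 76% against 58.2%, 61.8% and 65.6%. These 3 are 16.7% of the runs, the mAdu-high runs also numbered 3, and 5.72% of runs of mixed groupings and 0.475% of all stretches lay so close to such a gene.

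**Figure D2:**
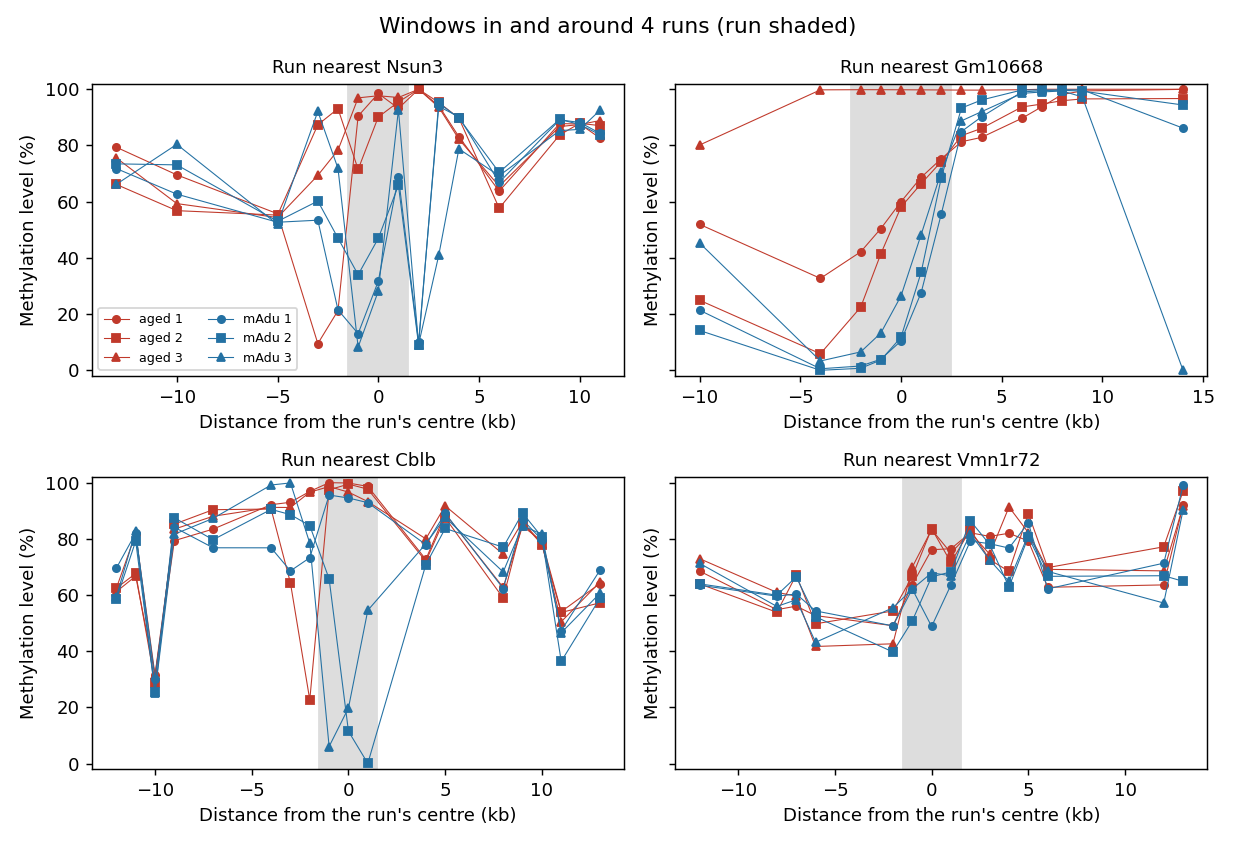
Methylation level (%) of every window with a value within 12 kb of 4 runs, against the distance from the run's centre (kb); red lines are aged and blue lines mAdu samples, and the run is shaded. The lines part within the shaded run and mostly meet again farther out, and near Gm10668 the level climbs along the run in all samples but aged 3, which stays near the top.

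Further runs lay outside protein-coding genes. Khdrbs2, an RNA-binding splicing regulator (chromosome 1, run from 32162001 to 32165000, 7602 bp from the gene), was at 84.5%, 84.1% and 92.5% in aged and 65%, 32.5% and 39.1% in mAdu samples. The window of 1000 bp that holds its CpG-rich promoter was low in both groups, at 3.56% ± 1.03 in aged and 3.37% ± 0.725 in mAdu (SD, n = 3). The run nearest Cntn5, a neuronal contactin (chromosome 9, 9557001 to 9560000, 74223 bp away), had 93.2%, 92.4% and 89.3% against 30.2%, 46.2% and 63.8%. Nearest Scg3, a secretory granule protein (chromosome 9, 75722001 to 75725000, 36042 bp away), levels were 83.8%, 86.6% and 88.6% against 30.7%, 56.8% and 55.5%. In these last 2 runs each aged sample lay over 25 points above the highest mAdu sample.

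Adcyap1 encodes the neuropeptide PACAP, and the run nearest it (chromosome 17, 93283001 to 93286000, 76460 bp away) was at 98.8%, 99.6% and 83.1% in aged and 74.5%, 72.2% and 16.3% in mAdu samples. Without mAdu sample 3 its difference was 20.5 instead of 39.5 points. Tenm3, a teneurin adhesion protein, was the nearest protein-coding gene at 1073177 bp (chromosome 8, run from 50596001 to 50599000, overlapping the long noncoding RNA gene 1700019L22Rik), with 85.5%, 70% and 72.7% against 44.5%, 37% and 42.9%. Most of the Tenm3 difference sat in the last window, at 74.5% in aged and 3.55% in mAdu. A run at the upper end of the scale lay 1359656 bp from Hace1, a ubiquitin ligase (chromosome 10, 47072001 to 47075000), with 98.4%, 97.6% and 98.5% against 85.8%, 79.8% and 78%. The run near Dcun1d5, a gene of the neddylation pathway (chromosome 9, 7245001 to 7248000, 24121 bp away), had 93.2%, 90.1% and 93.5% against 47.7%, 57.7% and 68.2%. The run nearest the predicted gene Gm52257 (chromosome 16, 47909001 to 47912000, 145639 bp away) had 75.1%, 93.8% and 89% against 44%, 37.8% and 50.9%. Every aged sample was above every mAdu sample in these runs, as the rule requires.

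Windows just inside the rule were those of the Vmn1r72 run, whose smallest window difference was 8.1 points, and of the Dcun1d5 run with 9.87. Just outside it were a stretch 354472 bp from Edil3 with 7.38 and one in Myo1e with 7.33 points. Without the minimum difference 165 runs had no overlap of the groups. Of all eligible windows, 78763 (4.76%) had aged above mAdu in every sample. The 165 are not set beside a count for the other direction or for mixed groupings. Single passing windows numbered 13800 and pairs of them 287, so the 56 windows of the runs were 0.388% of those that passed. Of the 36 sides of the runs, the next window was absent from the table at 14, held an extreme value at 8, had overlapping groups at 13 and a difference under 8 points at 1.

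Many of the runs lay where the table has few windows, near extreme values and far from genes, as did many mAdu-high runs and runs of mixed groupings. Within 10 kb of a run a median of 54.3% of the 1-kb positions had a window in the table, against 91.3% around all stretches of 3 windows, 71.7% around mAdu-high runs and 65.2% around runs of mixed groupings. A window with a value under 0.01% or above 99.99% lay within 10 kb of 10 of the 18 runs (55.6%), of 10 of the 18 mAdu-high runs, of 47.5% of the runs of mixed groupings and of 5.02% of all stretches. More than 20 kb parted 12 runs (66.7%) from the nearest protein-coding gene, against 50% of mAdu-high runs, 55.9% of runs of mixed groupings and 29.8% of all stretches. No run lay within 1000 bp of a start site among the 17 runs on chromosomes of the promoter table, nor did any of 17 mAdu-high runs there, where 4.79% of runs of mixed groupings and 8.51% of all stretches did. The part of window density and of nearby extreme values in the differences was not tested. By chromosome, 4 runs lay on chromosome 7 and 3 each on chromosomes 9 and 16, which hold 5.84%, 5.32% and 3.87% of the eligible windows, and 8 autosomes held none. Of the mAdu-high runs 4 also lay on chromosome 7, and none on chromosomes 9 and 16.

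None of the 18 runs lay within 10 kb of an autosomal member of the 204 genes listed for endothelial identity, lung capillary and arteriovenous identity, angiogenic and TGF-beta signalling, inflammation and senescence, developmental transcription factors, Hox genes, the methylation machinery, imprinting, and epithelial, haematopoietic and mesenchymal cells. The closest protein-coding one was Cd79a, a B cell receptor component, 2313497 bp from the run overlapping Gm4565. Stretches within 10 kb of a listed gene were rare, between 0.0363% of all stretches for Hox genes and 0.134% for developmental transcription factors. A count of 0 among 18 is therefore no result about these genes.

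Groupings that mixed the ages gave runs in numbers on both sides of 18. The rule was applied with every other choice of 3 higher samples, so that each group held samples of both ages, 18 choices in all. These gave between 6 and 26 runs, with a median of 17.5; 6 gave more than 18, 3 gave 18 and 9 gave fewer. Windows that met the rule numbered between 12671 and 20962, against 14430 for aged over mAdu. The longest run of a mixed grouping had 23 windows, and 7 mixed groupings had a run longer than 5 windows. These counts share samples and are a description, with no p.

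**Figure D3:**
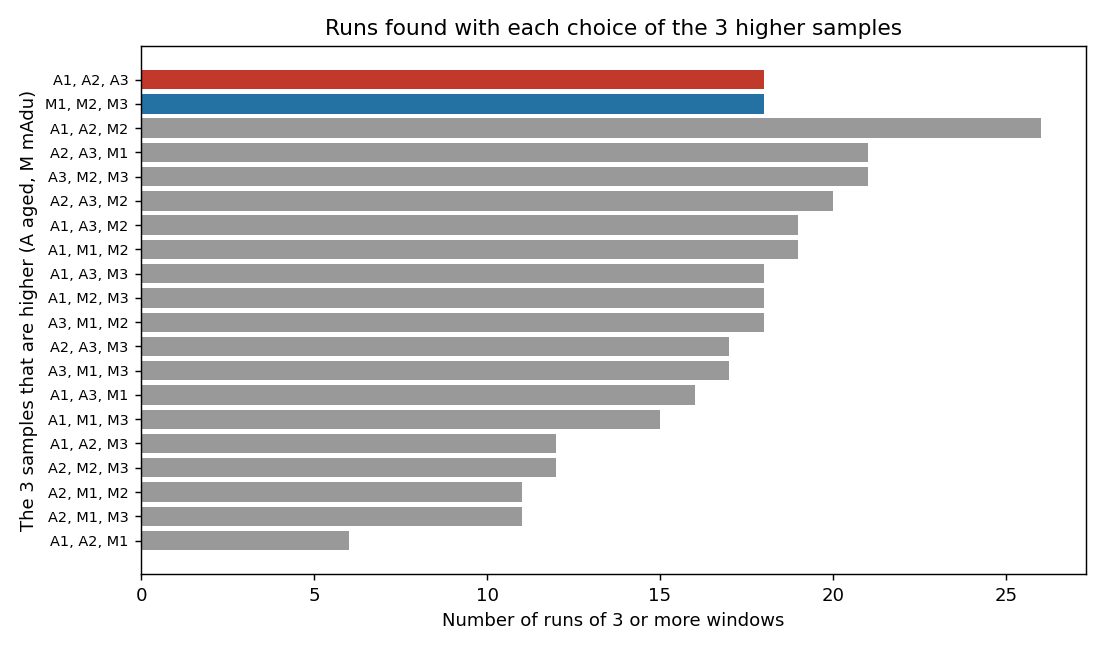
Number of runs of 3 or more windows for each choice of the 3 higher samples (A aged, M mAdu); the red bar is aged over mAdu, the blue bar mAdu over aged, and grey bars mix the ages. The red and blue bars both stand at 18, within the 6 to 26 of the grey bars.

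When runs were chosen on fewer samples, the samples left out differed by far less than the samples that chose them. Runs were chosen again on 2 aged and 2 mAdu samples by the same rule, and the remaining aged and mAdu samples were compared in them, for each of the 9 pairs that can be left out. Between 181 and 203 runs were chosen. The mean difference was 26.8 to 30.5 points in the samples that chose them and -0.767 to 4.42 points in the pair left out, with a mean of 0.85 and a median of 0.487 points over the pairs and a value above 0 in 6 of 9. Over all eligible windows the same pairs differed by -0.513 to 0.413 points, with a mean of -0.102. The highest value, 4.42 points, came from aged 3 and mAdu 1, and the next from aged 3 and mAdu 3 at 2.16 points. The left-out aged sample was the higher in 44.8% to 55.7% of the chosen runs, and in 44.6% to 54.7% of all stretches of 3 windows. For runs chosen with mAdu higher the left-out difference was -2.13 to 0.598 points. The pairs share samples, so no p is given. The 18 runs themselves were chosen on all 6 samples and have no sample left out, so their difference was not tested in other samples.

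Differences between the left-out samples were nonetheless large in these runs, in both directions. On average 29.1% of the chosen runs had the left-out aged sample at least 8 points above the left-out mAdu sample, and 28.1% had it at least 8 points below. Among all stretches of 3 windows these shares were 1.9% and 2.02%. The SD of the left-out difference over runs was 19.5 to 24.6 points.

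**Figure D4:**
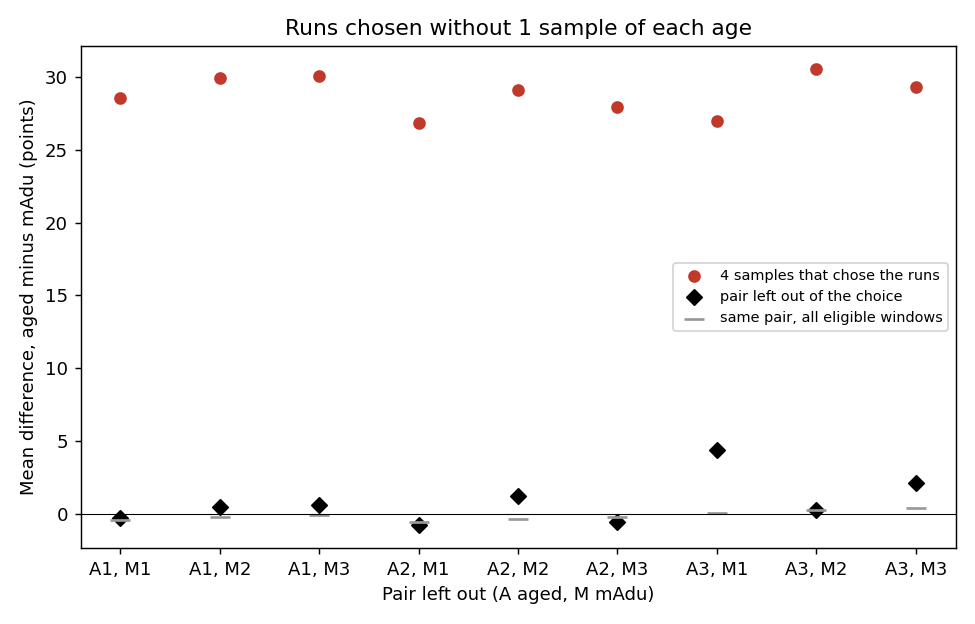
Mean difference between aged and mAdu (percentage points) in runs chosen without 1 sample of each age, for each of the 9 pairs left out; red points are the 4 samples that chose the runs, black diamonds the pair left out and grey bars that pair over all eligible windows. The red points lie between 26.8 and 30.5 and the black diamonds between -0.767 and 4.42.

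Levels were also measured beyond the edges of the 18 runs, where the ranges of the groups overlapped at 3 to 10 kb. Windows 3 to 10 kb outside the runs (114 windows) averaged 69.5%, 72.6% and 74.8% in aged samples 1, 2 and 3 and 69.2%, 71.6% and 70% in mAdu samples 1, 2 and 3. The difference was 2.02 points with an exact two-sided permutation p of 0.3. A design of 3 samples against 3 cannot give less than 0.1, so no difference could pass 0.05. Closer in, at 1 to 3 kb, the difference was -0.29 points (exact permutation p = 0.8), and at 10 to 50 kb it was -1.17 points (exact permutation p = 0.3). Neighbouring windows are correlated, and the rule ends a run where its criteria fail, so the nearest windows are not independent of the choice.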

How the data were processed

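Methylation levels are fractions that the authors deposited as means per window of 1000 bp, per the file header, for 3 aged and 3 mAdu samples of sorted lung endothelial cells. BWA 0.7.8 and mm10 were used, per the submitters' processing notes. The CpG caller, coverage filter, any smoothing and the way sites were averaged are not given in the sources used, and the table holds no coverage, so depth is unknown. Fractions were multiplied by 100. Of 1684140 windows, 1683697 had a value in all samples, and 28920 of these held an extreme value and were left out. Runs were found in Python 3.11.15 with numpy 2.4.6 and pandas 2.3.3, by a script tested on simulated data. The value of a run is the unweighted mean of its windows. A stretch of 3 consecutive eligible windows was the comparison for position. Genes and promoters came from RefSeq tables of GRCm38.p6. Runs to be named were the 10 with the largest difference, the longest up to 10, and up to 15 near listed genes; the rest were added so that each member is given. Flank levels were tested by exact permutation of samples, two-sided. Alternatives changed run length, the minimum difference, extreme values, centring, gaps, pairing and single samples. Members and gene lists were chosen with earlier results of these data known.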

Additional observations from a re-analysis of the deposited data

How the results depend on the processing

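The count of 18 runs was 305 with runs of at least 2 windows, 1 with at least 4, 38 with means at least 5 points apart, 121 with extreme values kept, 5 without values under 1% or above 99%, and 30 with 1 failing window allowed. It was 15 with means at least 12 points apart and 16 with samples centred. Under these 8 settings mixed groupings gave 253 to 476, 0 to 6, 22 to 64, 112 to 158, 3 to 12, 14 to 44, 4 to 20 and 6 to 27 runs, in the same order, and the count for aged over mAdu lay within each of these ranges. Without any 1 sample the count was 58 to 85, because 2 samples separate from 3 more easily. With mAdu over aged it was 52 to 87 under the same settings. Counting only runs with no extreme value within 10 kb, a setting chosen after seeing the data, gave 8, against 8 for mAdu over aged and 2 to 19 for mixed groupings. As a replicate block, asking that each aged sample exceed the mAdu sample of the same number gave 88 runs, against 80 in the other direction. The labels link same-numbered samples by number alone, and whether they were handled together is not known. Their deviations from group means correlated across windows at -0.00937, -0.00145 and -0.00557, and those of other pairs at -0.00511 to 0.0108. The mean difference in left-out pairs was -0.951 points with extreme values kept. Under the other 6 settings tried for it, it moved by less than its SD over pairs (1.61), a loose yardstick because the pairs share samples. It was -0.479 without values under 1% or above 99% and above 0 in the other 5. With runs of at least 4 windows the pairs ranged from -8.75 to 15.1 points, so that setting says little. The left-out difference has no value without single samples, since 1 sample would then make a group of the choice. The flank difference of 2.02 points turned to -0.29 at 1 to 3 kb and -1.17 at 10 to 50 kb, and was 0.775 to 3.43 points without any 1 sample. With the replicate block an exact sign-flip test over pairs gave p = 0.25 for the flank difference of 2.02 points. In that flank every aged sample lay above the mAdu sample of the same number. The p is the lowest that 3 pairs can give in this test, so it cannot decide whether the flanks differ. Each of the 18 runs kept its direction without any 1 sample, but the rule that chose them fixes this in advance. With samples centred each also kept it, but centring shifts the difference of every run by the same small amount, so this too was fixed in advance. The smallest difference, of the Vmn1r72 run, went from 12.1 to 12.2 points.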
